A study of Mus musculus with 32 samples.

Results

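The epidermal growth factor (EGF) receptor family and its ligands were followed in mouse kidneys with and without a *Pkd1* deletion. The 10 genes were taken by name as rows of the count table, which holds 53700 genes: the receptors *Egfr*, *Erbb2*, *Erbb3* and *Erbb4*, and the ligands *Egf*, *Hbegf*, *Areg*, *Tgfa*, *Btc* and *Nrg1*. All 10 had a row, and 9 passed the filter on low counts and were among the 13961 genes tested. *Areg* did not pass it and was tested in a separate fit on all 33588 genes with at least 1 count.

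RNA was sequenced from 32 whole kidneys of male C57BL/6 mice, 1 library per kidney. All mice carried loxP sites in *Pkd1* and a tamoxifen-inducible Cre driven by the *Cdh16* (Ksp-cadherin) promoter, which is active in tubule epithelium. The 8 wildtype mice received no tamoxifen and were 109 days old. The 12 PKD mice (*Pkd1* KO) and the 12 PKD + Salsalate mice received 150 mg/kg tamoxifen on postnatal days 18 and 19 and were 95 days old. Salsalate, a salicylate prodrug that activates AMPK, was given at 2.5 g/kg chow from day 81 for 2 weeks. The kidneys of both PKD groups had been chosen by the authors among more animals for a mild cystic phenotype. Age and tamoxifen differ together with the genotype between wildtype and both PKD groups, so their parts in any difference cannot be told apart.

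Total counts per library ranged from 11193136 to 109807664, with a median of 17242801. The transcript of *Pkd1* was not lower in PKD kidneys (log2 fold change 0.42, adjusted p = 0.0013); only some of its exons are flanked by loxP sites, so the gene count does not check the deletion. *Cdh16*, the gene whose promoter drives Cre, had a median of 885 CPM, counts scaled to library size, in wildtype and 935 CPM in PKD kidneys. PKD replicate 10 held liver transcripts: its 12 liver genes summed to 6561 CPM, against 514 to 1840 in the other 31 kidneys. The wildtype libraries formed 2 sets that their names distinguish. The names of 5 end in R and those of 3 do not, and 43.8% of all tested genes had no overlap between the sets. Of the 9 members tested, 7 had none: *Egf*, *Egfr*, *Erbb2*, *Erbb3*, *Erbb4* and *Tgfa* were higher in the 3 other libraries, and *Hbegf* was higher in the 5 ending in R. No PKD library has a name ending in R. What the letter stands for is not given in the sources used here, and most comparisons of the members with wildtype are also given against either set. For *Pkd1* the log2 fold change was 0.54, called, against the set ending in R and 0.24, not called, against the other.

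The 4 receptors of this family are tyrosine kinases that work as pairs. ErbB2 has no known ligand of its own, ErbB3 has a weak kinase and signals through its partner, and EGFR and ErbB4 bind ligands and signal by themselves. Ligands are made as membrane-bound precursors, and metalloproteases of the ADAM family release them; EGF, TGF-alpha and amphiregulin bind EGFR, betacellulin and HB-EGF bind EGFR and ErbB4, and neuregulin 1 binds ErbB3 and ErbB4. In the kidney, EGF is made in the thick ascending limb and distal convoluted tubule, and EGFR lies on many tubule segments. In polycystic kidney disease, EGFR that is placed on the wrong side of cyst cells has long been studied as a driver of their growth.

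*Areg*, *Btc* and *Egf* are the ligand genes with the largest differences for which the RefSeq promoter table holds a window. The table held windows for 7 of the 10 members, without *Erbb3*, *Hbegf* and *Nrg1*. The 250 bases before each annotated start are shown 5′ to 3′ on the gene's strand in GRCm38.p6. *Areg* lies at chr5:91139349-91139598 on the plus strand, *Btc* at chr5:91402995-91403244 on the minus strand, and *Egf* at chr3:129755323-129755572 on the minus strand. Capitals mark the letters TGACGTCA, the cAMP response element, and TATAAA in *Areg*, and CGTCA, which is TGACG on the other strand and the first 5 letters of that element, in *Btc*.
*Areg*: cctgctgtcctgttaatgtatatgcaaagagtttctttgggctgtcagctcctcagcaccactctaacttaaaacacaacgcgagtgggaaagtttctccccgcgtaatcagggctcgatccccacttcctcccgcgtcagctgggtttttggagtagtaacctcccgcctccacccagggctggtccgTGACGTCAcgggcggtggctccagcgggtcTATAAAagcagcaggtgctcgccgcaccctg
*Btc*: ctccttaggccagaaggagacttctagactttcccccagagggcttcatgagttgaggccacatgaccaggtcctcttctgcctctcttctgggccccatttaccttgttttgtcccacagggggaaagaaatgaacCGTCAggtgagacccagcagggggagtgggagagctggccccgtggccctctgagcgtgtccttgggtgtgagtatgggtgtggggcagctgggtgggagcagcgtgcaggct
*Egf*: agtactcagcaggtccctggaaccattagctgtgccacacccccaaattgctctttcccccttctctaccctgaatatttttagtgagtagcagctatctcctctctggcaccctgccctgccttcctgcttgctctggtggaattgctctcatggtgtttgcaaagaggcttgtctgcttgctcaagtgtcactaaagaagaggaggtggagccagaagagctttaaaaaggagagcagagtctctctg

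Read on both strands, TGACGTCA occurred in 1.55% of the 32851 promoter windows of the same length, and among the member windows only in that of *Areg*, starting 61 bases before the start. TGACG, which is part of TGACGTCA, occurred in 17.8% of windows and in those of *Areg*, *Btc* and *Erbb2*. TATAAA occurred in 12.4% of windows and only in that of *Areg* among the members, starting 31 bases before the start. TGANTCA, the AP-1 site, occurred in 6.75% of windows and in none of the members' windows. These are matches of letters in a window, not sites that were measured.

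**Figure D1:**
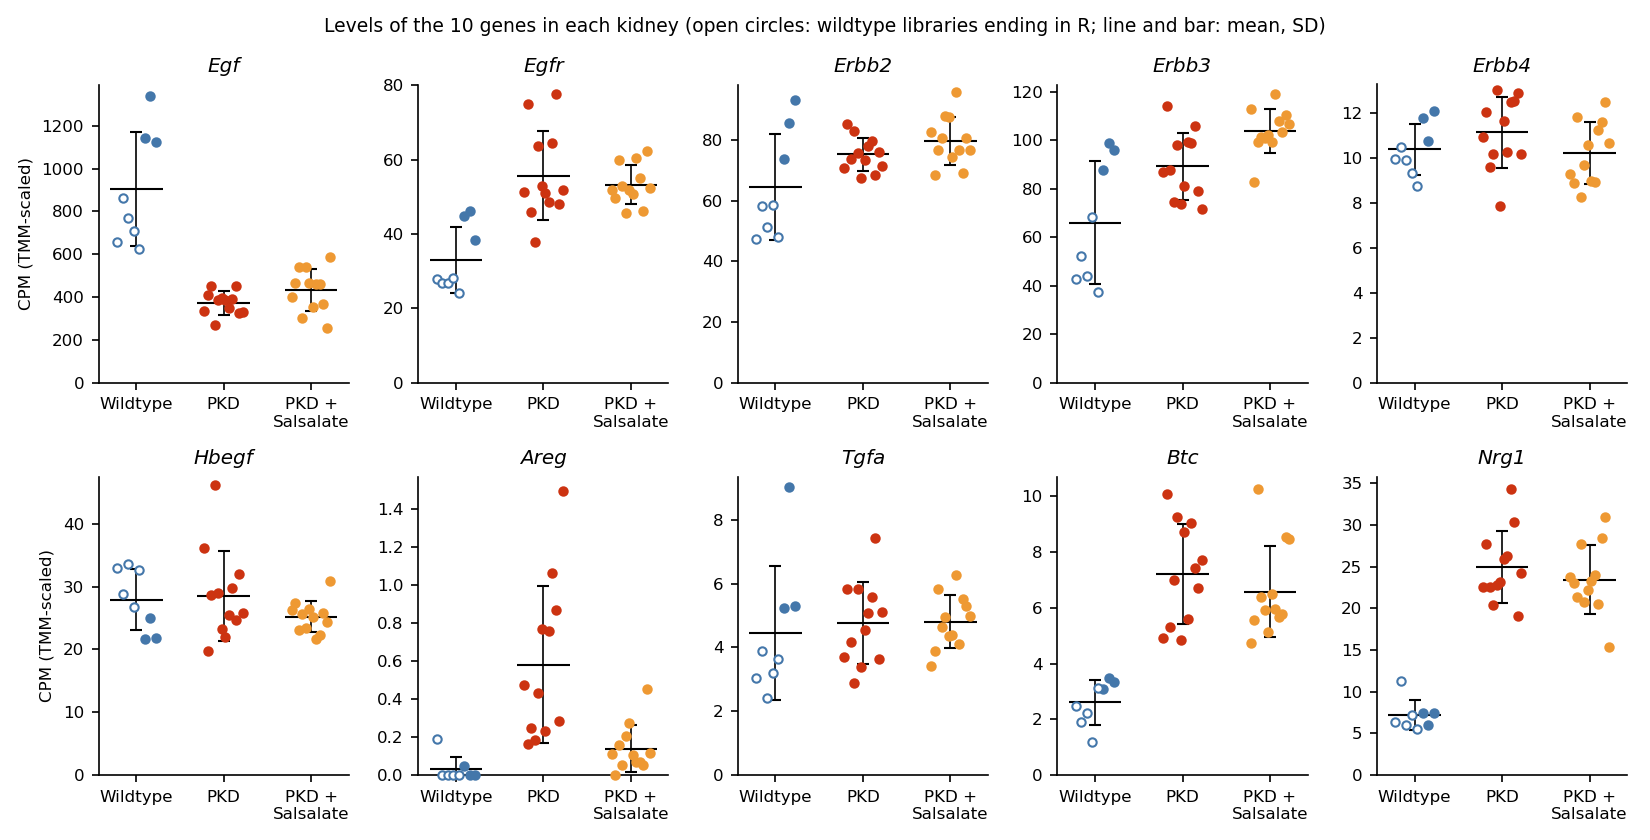
CPM (TMM-scaled, linear axes from 0) of the 10 genes in each of the 32 kidneys, 1 point per kidney, with the group mean as a line and the SD as a bar. Open circles are the 5 wildtype libraries ending in R; *Egf* lay lower, and *Btc* and *Nrg1* higher, in every PKD and every PKD + Salsalate kidney than in any wildtype kidney.

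The first comparison sets PKD kidneys against wildtype kidneys, which also differ in age, tamoxifen and library names. In PKD kidneys the ligands moved apart: *Egf*, the most abundant member, fell 2.43-fold, while *Nrg1* rose 3.46-fold and *Btc* 2.74-fold, and the rare *Areg* rose as well. Among the receptors *Egfr* rose 1.68-fold and *Erbb3* 1.35-fold, and the latter only against part of the wildtype kidneys. By the quasi-likelihood test of edgeR, 4 of the 9 members tested rose (24.1% of all tested genes did) and 1 fell (25.0%). As a share, 5 of 9 was near the 49.1% of all genes that were called. With the R-named wildtype set alone 7 of 9 were called (59.6% of all genes were), and with the other set alone 4 of 9 (40.8%). The members' median log2 fold change was 0.22, against -0.01 over all genes. In 3 of the 9, *Egf*, *Btc* and *Nrg1*, no PKD kidney overlapped any wildtype kidney, which held for 7.28% of all tested genes (5.21% higher and 2.07% lower).

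*Egf* encodes the founding ligand of the family and lies on chromosome 3 (129470410 to 129549093, minus strand, GRCm39). Its lowest, median and highest levels were 626, 818 and 1339 CPM in wildtype kidneys and 269, 384 and 453 CPM in PKD kidneys. All 12 PKD kidneys were below the lowest wildtype kidney. The log2 fold change was -1.28 (SE 0.139, adjusted p = 4.1e-09). It was -0.96 (adjusted p = 3.6e-07) against the 5 wildtype libraries with names ending in R, which ran from 626 to 864 CPM, and -1.70 (adjusted p = 3.2e-09) against the remaining 3, which ran from 1126 to 1339 CPM. In whole kidneys, fewer cells of a type and less RNA per cell cannot be told apart, here or for any gene below.

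Markers of the tubule segments that make EGF moved with it in part. Of the 8 genes of the distal convoluted tubule list, 6 fell in PKD kidneys and 2 were not called, with a median log2 fold change of -0.83. Among all tested genes 25.0% fell and 49.1% were called. *Klhl3*, an adaptor of the ubiquitin ligase that controls WNK kinases, fell by 1.07 on the log2 scale, *Slc12a3*, the thiazide-sensitive cotransporter, by 1.03, and *Calb1*, a calcium buffer, by 1.56 (adjusted p at most 4.9e-12). Of the 7 genes of the thick ascending limb list, 3 fell: *Cldn10*, *Kcnj1* and *Bsnd*. As a share called, 3 of 7 was near the 49.1% of all tested genes. *Slc12a1*, *Cldn16*, *Ptger3* and *Umod* were not called, and *Umod*, uromodulin, the defining protein of that segment, had a median of 1923 CPM in wildtype and 2439 CPM in PKD kidneys (adjusted p = 0.31). The summed level of the distal convoluted tubule list was 3482 to 6856 CPM in wildtype and 3362 to 5025 CPM in PKD kidneys, and that of the thick ascending limb list 2377 to 4646 and 2751 to 3847 CPM. Against the R-named wildtype set, 6 genes of the first list and 3 of the second fell and 2 of each list rose. Against the remaining 3 wildtype libraries 7 and 6 fell and 0 rose. No gene of either list was at 0 in a whole group. The part of these cells in the fall of *Egf* was not tested.

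Set against *Slc12a3* in the same kidney, *Egf* overlapped between the groups. The ratio of their CPM was 0.591 to 1.35 with a median of 0.726 in wildtype and 0.474 to 0.947 with a median of 0.731 in PKD kidneys (exact two-sided permutation test on log2 ratios, p = 0.21, adjusted over 3 comparisons 0.51). The mean log2 ratio was 0.21 lower in PKD kidneys. The wildtype values split by library name, with 0.591 to 0.743 in the 5 libraries ending in R and 1.14 to 1.35 in the 3 others, and PKD kidneys differed from these sets by 0.11 and -0.74 in mean log2 ratio, so the pooled value rests on 2 unlike sets.

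Set against *Umod*, the groups stood apart. The ratio was 0.401 to 0.465 in the 8 wildtype kidneys and 0.135 to 0.224 in the 12 PKD kidneys, with a mean log2 difference of -1.44 (exact permutation test, p = 1.6e-05, the smallest it can give, adjusted 2.4e-05). Here both wildtype sets gave like values, 0.401 to 0.465 for the libraries ending in R and 0.403 to 0.426 for the others. Each gene by itself differed between the sets, *Umod* with 1416 to 1925 and 2640 to 3289 CPM. Both ratios were chosen after the data were seen.

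**Figure D2:**
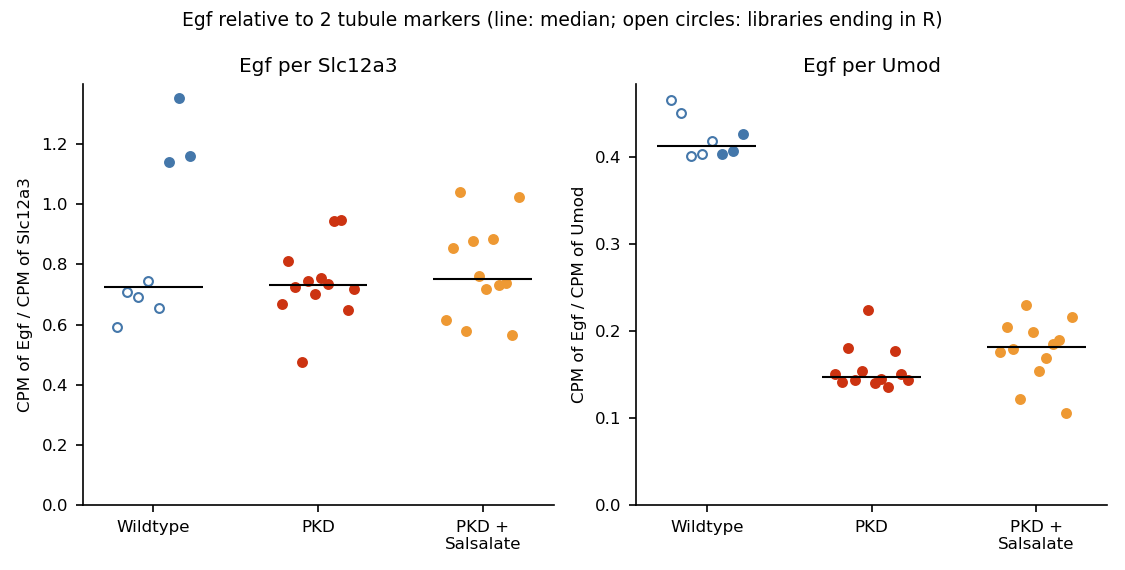
Ratio of the CPM of *Egf* to that of *Slc12a3* (left) and of *Umod* (right) in each kidney, by group, with the group median as a line. Against *Umod* the PKD kidneys (0.135 to 0.224) and PKD + Salsalate kidneys (0.105 to 0.230) all lay below the wildtype kidneys (0.401 to 0.465); against *Slc12a3* the groups overlapped.

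*Nrg1*, neuregulin 1, lies on chromosome 8 (32303906 to 33374825, minus strand, GRCm39). It measured 5.55, 6.78 and 11.3 CPM in wildtype kidneys (lowest, median and highest) and 19.1, 23.8 and 34.4 CPM in PKD kidneys. All PKD kidneys were above the highest wildtype kidney. The log2 fold change was 1.79 (SE 0.128, adjusted p = 6.2e-13), the smallest p of the 9 members, and it was almost the same against either wildtype set, 1.76 for the set ending in R and 1.82 for the other.

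*Btc*, betacellulin, lies on chromosome 5 (91505120 to 91550883, minus strand, GRCm39), in the cluster that also holds *Areg*. Its levels were 1.19, 2.77 and 3.49 CPM in wildtype and 4.84, 7.20 and 10.1 CPM in PKD kidneys. These ranges did not overlap either. The log2 fold change was 1.46 (SE 0.181, adjusted p = 6.2e-08), with 1.74 for the set ending in R and 1.13 for the other (adjusted p = 1.1e-07 and 0.00031).

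*Areg*, amphiregulin, lies at 91287451 to 91296291 on the plus strand of chromosome 5 (GRCm39). It was close to undetected in wildtype kidneys: 6 of 8 had no count, and the other 2 held 1 and 2. Every PKD kidney had a count, from 2 to 32, and 11 of 12 had over 2. In CPM the wildtype kidneys ran from 0 to 0.189 with a median of 0, and the PKD kidneys from 0.164 to 1.49 with a median of 0.452. Of the PKD kidneys 10 were above the highest wildtype kidney. Summed over libraries, 3 counts in wildtype and 151 in PKD kidneys gave a ratio of 23.3 (95% exact interval 7.83 to 114, which covers counting error only). In the fit on all genes with a count, where 12.2% of genes rose, the adjusted p was 6.6e-06, and an exact permutation test on CPM gave p = 4.8e-05 (adjusted over 3 comparisons 0.00014).

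*Hbegf* and *Tgfa* did not pass the threshold. *Hbegf*, the heparin-binding ligand, had medians of 27.8 CPM in wildtype and 27.2 CPM in PKD kidneys (log2 fold change 0.04, 95% interval -0.20 to 0.27). *Tgfa* had medians of 3.76 and 4.81 CPM (log2 fold change 0.08, interval -0.28 to 0.45). For *Tgfa* the sign depended on the wildtype set: 0.56 (adjusted p = 0.0070) for the set ending in R and -0.43 (adjusted p = 0.079) for the other. For *Hbegf* the values were -0.12 and 0.31, with adjusted p of 0.42 and 0.11.

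Among the receptors, *Egfr* lies on chromosome 11 (16702198 to 16868158, plus strand, GRCm39). Its levels were 24.2, 28.0 and 46.3 CPM in wildtype kidneys and 37.9, 51.6 and 77.6 CPM in PKD kidneys. Of the 12 PKD kidneys 10 were above the highest wildtype kidney. The log2 fold change was 0.75 (SE 0.123, adjusted p = 6.8e-06). It was 1.06 (adjusted p = 1.2e-08) with the R-named wildtype set and 0.36 (adjusted p = 0.043) with the other, and 0.70 when PKD replicate 10, which held liver transcripts, was left out.

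*Erbb3*, the receptor with the weak kinase, measured 37.2, 60.2 and 98.9 CPM in wildtype and 71.6, 87.2 and 114 CPM in PKD kidneys. Only 3 of the 12 PKD kidneys were above the highest wildtype kidney. The log2 fold change was 0.43 (SE 0.139, adjusted p = 0.010), but it was 0.87 (adjusted p = 1.4e-07) for the set ending in R and -0.09 (adjusted p = 0.54) for the other. *Erbb2*, the receptor with no ligand of its own, missed the threshold (medians 58.5 and 74.8 CPM, log2 fold change 0.22, adjusted p = 0.057). It too split, with 0.51 (adjusted p = 4.8e-07) and -0.17 (adjusted p = 0.10). *Erbb4* had medians of 10.2 and 11.3 CPM and a log2 fold change of 0.10 (interval -0.08 to 0.28), with 0.21 and -0.06 for the sets, neither called.

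**Figure D3:**
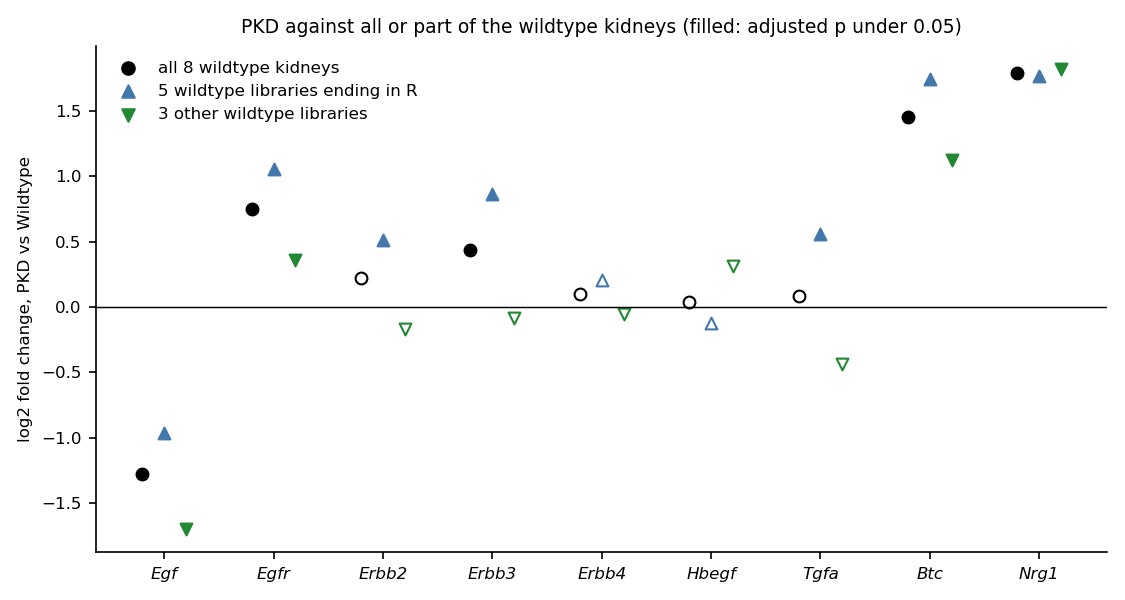
Log2 fold change (linear axis) of the 9 tested members in PKD kidneys against all 8 wildtype kidneys (circles), the 5 libraries ending in R (upward triangles) and the 3 others (downward triangles), filled where the adjusted p was under 0.05. *Nrg1* gave 1.79, 1.76 and 1.82, while *Erbb2*, *Erbb3*, *Erbb4*, *Hbegf* and *Tgfa* lay on both sides of 0.

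The second comparison asks what salsalate changed in PKD kidneys. For the 9 members tested it was small: log2 fold changes ran from -0.18 for *Hbegf* to 0.22 for *Egf* and *Erbb3*. Of the 9, 0 were called by edgeR, as against 0.58% of all tested genes (0.251% higher and 0.329% lower), and 0 had an unadjusted p under 0.05 (smallest 0.085, for *Erbb3*). The unadjusted p depended on the wildtype kidneys that share the fit: for *Erbb3* it was 0.0044 with only the 2 PKD groups in the fit, 0.013 with the R-named wildtype set and 0.0029 with the other (adjusted p 0.12, 0.22 and 0.092), and for *Egf* 0.057, 0.049 and 0.047. DESeq2's Wald test and limma-voom also called 0. The 95% intervals of the 9 differences lay between -0.42 and 0.47, so differences of up to about these sizes remain possible in single genes.

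*Egf* measured 256, 462 and 586 CPM with salsalate, against 269, 384 and 453 CPM without. Of the 12 treated kidneys 7 were above the highest untreated PKD kidney and 1 was below the lowest. The log2 fold change was 0.22 (95% interval -0.04 to 0.47, adjusted p = 0.61). All 12 stayed below the lowest wildtype kidney. *Erbb3* was above the PKD median in 11 of 12 treated kidneys (82.8, 102.7 and 119 CPM, interval -0.03 to 0.47), and *Hbegf* was below it in 10 of 12 (21.7, 25.4 and 30.9 CPM, interval -0.38 to 0.03). Neither passed the test.

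*Areg* was the one member called between the PKD groups, in the fit on all genes with a count, where 0.357% of genes were called and 0.25% fell. Treated kidneys held 0 to 17 counts, and 4 of 12 had over 2. Their CPM was 0 to 0.454 with a median of 0.107, against 0.164 to 1.49 with a median of 0.452 without salsalate. Of the 12 treated kidneys 9 were below the lowest PKD kidney, and 11 were below the PKD median. Summed counts of 49 and 151 gave a level 3.49-fold lower with salsalate (95% exact interval 2.51 to 4.92, counting error only). The fitted log2 fold change was -1.90 (adjusted p = 0.026), and a permutation test with 100000 draws of the CPM gave p = 0.00058 (adjusted over 3 comparisons 0.00087). Leaving out PKD + Salsalate replicate 3, the library with 109807664 counts, moved the fitted adjusted p to 0.051. Every level here is near that of a few counts.

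Markers of dividing cells moved in the same directions as *Areg*. All 6 rose in PKD kidneys, and 3 of them were lower with salsalate (2 with PKD replicate 10 left out, and 4 with either wildtype set alone in the fit): *Bub1*, a spindle checkpoint kinase (log2 fold change -0.72), *Top2a*, a DNA topoisomerase (-0.65), and *Cdk1*, the mitotic kinase (-0.54). Their 6 genes summed to 10.9 to 25.3 CPM in wildtype, 61.2 to 114 CPM in PKD and 45.1 to 94.8 CPM in PKD + Salsalate kidneys. Among all tested genes 24.1% rose in PKD kidneys and 0.329% were lower with salsalate. The injured tubule list rose in all 8 genes in PKD kidneys, among them *Havcr1*, the injury molecule KIM-1, and summed to 364 to 631, 1457 to 2953 and 1222 to 3777 CPM, and 0 of its 8 genes were called with salsalate. Their part in the level of *Areg* was not tested.

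**Figure D4:**
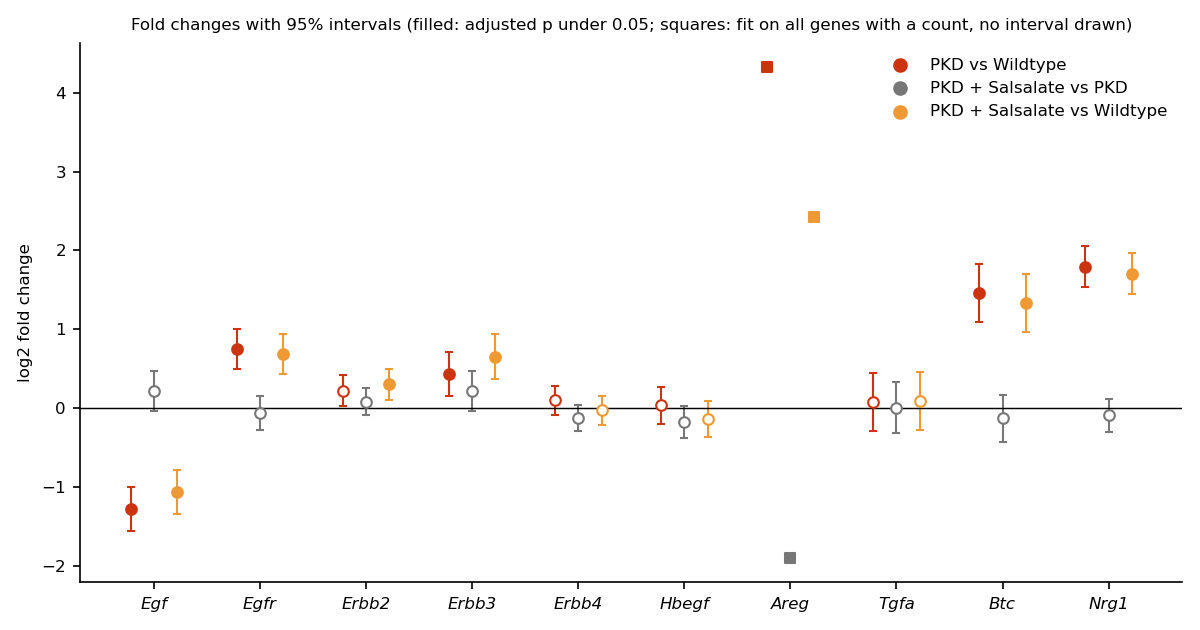
Log2 fold change of the 10 genes in the 3 comparisons, with 95% intervals for the 9 members that passed the filter on low counts and squares without intervals for *Areg*, from the fit on all genes with a count; filled symbols have an adjusted p under 0.05. In PKD + Salsalate against PKD (grey) the 9 intervals lie between -0.42 and 0.47 and *Areg* lies at -1.90.

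The third comparison sets treated PKD kidneys against the same wildtype kidneys as the first, so both share their controls. In PKD + Salsalate kidneys 5 of the 9 members were higher (21.8% of all tested genes were) and 1 was lower (23.2%), which is 6 of 9 against 44.9% of all genes. *Egf* was lower in all 12 kidneys (log2 fold change -1.06, adjusted p = 2.1e-07), and *Nrg1* (1.70, 3.3e-12) and *Btc* (1.33, 4.3e-07) were higher in all 12, again with no overlap, which held for 6.39% of genes (4.46% higher and 1.93% lower). These 3 calls held against either wildtype set, with -0.74 for the R-named set and -1.48 for the other for *Egf*, 1.67 and 1.74 for *Nrg1*, and 1.61 and 1.01 for *Btc*. *Egfr* differed by 0.69 (adjusted p = 3.2e-05), *Erbb3* by 0.65 (0.00031) and *Erbb2* by 0.30 (0.011). Against the R-named set these 3 receptors gave 0.99, 1.08 and 0.59, all called. Against the 3 other wildtype libraries they were not called, with 0.30 (adjusted p = 0.10), 0.14 (0.35) and -0.08 (0.47). *Tgfa* (0.57, adjusted p = 0.0066) and *Hbegf* (-0.29, adjusted p = 0.041) were called against the R-named set but not against the other (-0.42 and 0.14), and *Erbb4* was called against neither (0.08 and -0.18).

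*Areg* in treated kidneys was above wildtype by a ratio of 6.69 in summed counts (49 against 3, interval 2.16 to 33.6). The fitted adjusted p was 0.027, where 20.6% of genes were called and 10.5% were higher, and the exact permutation p was 0.016 (adjusted over 3 comparisons 0.016). This call was lost against either wildtype set, with fitted adjusted p of 0.13 and 0.12, and on leaving out any of wildtype replicates 2, 4, 5 and 8 or PKD + Salsalate replicate 11 (highest adjusted p 0.066).

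Per kilobase of merged exons the order of the levels in wildtype kidneys was *Egf*, *Erbb2*, *Erbb3*, *Hbegf*, *Egfr*, *Erbb4*, *Btc*, *Tgfa*, *Nrg1* and *Areg*. *Egf* had a median of 66.9 CPM per kilobase (51.2 to 110), and *Erbb2*, the next, 10.8 (8.71 to 17.2). The ranges of *Erbb2* and *Erbb3* overlapped, as did those of *Erbb3* and *Hbegf*, while *Hbegf*, *Egfr* (median 2.43) and *Erbb4* (median 0.80) stood apart from each other. In PKD kidneys *Btc* (median 1.58) and *Nrg1* (median 1.42) stood above *Erbb4* (median 0.885). Their ranges, 1.06 to 2.21 and 1.14 to 2.06, overlapped each other but not that of *Erbb4*, 0.615 to 1.02. The order depends on the length used: per kilobase of coding exons the wildtype median of *Btc* (5.23) was already above that of *Erbb4* (2.57), with overlapping ranges, and that of *Nrg1* was 1.86.

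Of the summed ligand level per kilobase, *Egf* made up a median of 90.3% in wildtype (86.6 to 93.8), 75.5% in PKD (64.0 to 80.5) and 81.7% in PKD + Salsalate kidneys (68.4 to 84.6). On this scale *Egf* was the highest ligand in all 32 kidneys. The share of *Hbegf*, whose level was not called, was a median of 7.68% in wildtype, 13.4% in PKD and 11.3% in PKD + Salsalate kidneys. The share of *Btc* was a median of 0.688% in wildtype, 4.26% in PKD and 3.05% in PKD + Salsalate kidneys, and that of *Nrg1* was 0.536%, 3.73% and 3.05%. With coding exons only, the share of *Egf* was 79.4%, 57.6% and 65.8% and that of *Hbegf* 16.6%, 25.1% and 22.4%. In PKD replicate 4, *Hbegf* then stood slightly above *Egf* (74.0 and 73.2 CPM per kilobase), and in the other 31 kidneys *Egf* was the highest.

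Of the 5 other ligand genes of the family, *Nrg4*, neuregulin 4, was the one that passed the filter, and it fell in PKD kidneys (medians 2.73 and 1.99 CPM, log2 fold change -0.50, adjusted p = 0.026). *Nrg4* was not called against the R-named wildtype set (-0.41), and against the other it was (-0.64). *Ereg*, epiregulin, had 1 count over all wildtype kidneys and 18 over the PKD kidneys, with an adjusted p of 0.034 in the fit on all genes with a count. *Epgn*, *Nrg2* and *Nrg3* were not called there. The highest level of these 4 genes in any kidney was 1.29 CPM, for *Nrg2*.

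Most genes of the list on ligand shedding were higher in PKD kidneys, while their summed level overlapped. It was 1699 to 2281 CPM in wildtype and 1825 to 2659 CPM in PKD kidneys. Of the 8 genes of the shedding list 7 rose in PKD kidneys and 0 fell (24.1% and 25.0% of all tested genes), with a median log2 fold change of 0.61. *Adam19*, a metalloprotease that cleaves neuregulin, rose by 1.23 (SE 0.122, adjusted p = 6.7e-10). *Rhbdf2*, which brings ADAM17 to the cell surface, rose by 0.82 (adjusted p = 1.6e-08), and *Adam17*, the main sheddase of *Areg* and *Tgfa* products, by 0.48 (adjusted p = 1.6e-06). For *Adam19*, *Rhbdf2* and *Adam17* every PKD kidney was above every wildtype kidney, which held for 5.21% of all tested genes. *Timp3*, an inhibitor of ADAM17, was not called (0.05). The remaining risers were *Adam10*, *Rhbdf1*, *Adam12* and *Adam9*, at 0.69, 0.63, 0.60 and 0.27. Against the wildtype libraries ending in R 7 of the 8 rose, and against the remaining 3 wildtype libraries 5 did. With salsalate 0 of the 8 were called, and *Timp3* alone had an unadjusted p under 0.05.

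The 14 genes of the list on restraint and turnover of the receptors did not move one way. The list mixes genes with unlike roles in receptor turnover, so its counts are not a measure of restraint. In PKD kidneys 6 rose, 2 fell and 6 were not called (24.1% of all tested genes rose and 25.0% fell), with a median log2 fold change of 0.09. With the R-named wildtype set 7 rose and 4 fell, and with the other 4 rose and 3 fell. *Lrig3* (0.50) and *Lrig2* (0.38), membrane proteins of a family that tunes receptor turnover, rose, and *Usp8*, a deubiquitinase that acts on internalised EGFR, fell by 0.69. *Errfi1*, an inhibitor of the EGFR kinase that signalling induces, was the other gene that fell (log2 fold change -0.36). It measured 145 to 240 CPM in PKD kidneys, 153 to 289 CPM in the wildtype libraries ending in R and 327 to 378 CPM in the others.

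Of the 38 genes of the steps downstream of the receptors, 12 were called in PKD kidneys, beside 49.1% of all tested genes. Of 12 adaptor and exchange factor genes 1 rose and 3 fell in PKD kidneys, of 13 genes of the MAPK cascade 1 rose and 3 fell, and of 13 genes around PI3K, AKT and STAT 1 rose and 3 fell. Medians of the log2 fold changes were -0.06, -0.08 and -0.11. *Vav2*, a guanine nucleotide exchange factor, rose by 0.59, and *Gab2*, *Sos2* and *Ptpn11* fell by 0.36, 0.34 and 0.20. In the cascade *Hras* fell by 0.61, *Map2k2* by 0.26 and *Braf* by 0.18, and *Ksr1*, a scaffold of the cascade, rose by 0.24. *Stat3*, a transcription factor, rose by 0.49, while *Pik3ca*, the catalytic subunit of PI3K, fell by 0.34, *Akt2* by 0.19 and *Stat5b* by 0.18. Against the R-named wildtype set 18 of the 38 were called, 6 higher and 12 lower (59.6% of all genes were called), and against the 3 other wildtype libraries 13, 7 higher and 6 lower (40.8%). With salsalate 0 of the 61 tested genes on the 6 pathway lists were called, and 7 had an unadjusted p under 0.05.

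**Figure D5:**
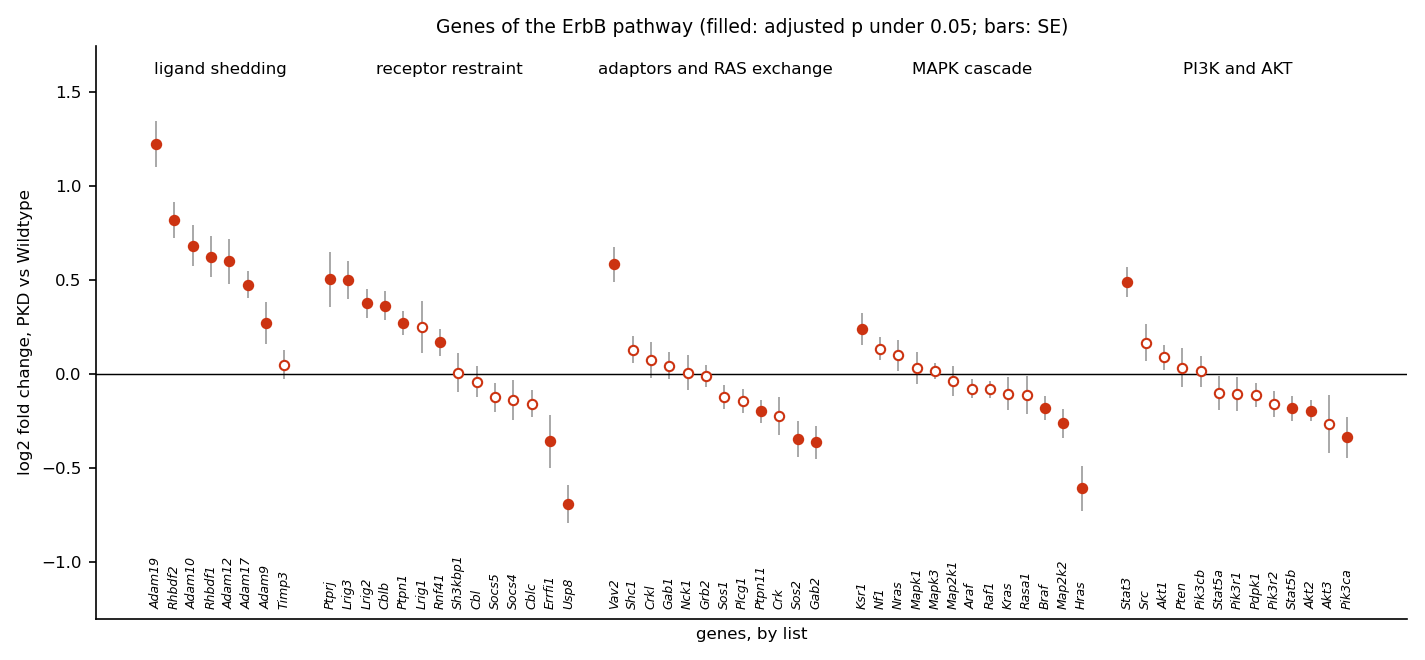
Log2 fold change in PKD against wildtype kidneys of the 60 tested genes of 5 pathway lists, sorted within each list, with SE bars; filled points have an adjusted p under 0.05. Of the 8 shedding genes 7 are filled and above 0, while the lists of the downstream steps centre near 0 (medians -0.06 to -0.11).

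Of the cells outside the tubules, fibroblasts and pericytes and leukocytes had mostly higher markers in PKD kidneys. Among all tested genes 24.1% rose and 25.0% fell. All 7 genes of the fibroblast and pericyte list rose, with *Col1a1*, *Col3a1* and *Col1a2*, which encode fibrillar collagens, leading (log2 fold changes 2.32, 2.31 and 1.37), and their sum went from 326 to 476 CPM in wildtype to 724 to 1256 CPM. Of the 7 tested leukocyte genes 6 rose, led by *Lyz2*, *Ptprc* and *Cd68* (1.97, 1.34 and 1.30), and 1 fell, with sums of 113 to 173 and 244 to 353 CPM. Of the endothelial genes 2 rose, *Cdh5* and *Pecam1*, and 2 fell, *Kdr* and *Ehd3*, and the sums overlapped (296 to 436 and 281 to 351 CPM). None of these lists held a gene at 0 in a whole group. Against the R-named wildtype set and the other, 5 and 6 of the 7 fibroblast and pericyte genes rose. In each of these fits 6 leukocyte genes passed the filter in place of 7, and all 6 rose. With salsalate none of their genes was called. Their part in the rise of *Nrg1* and *Btc* was not tested.

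Lists of other tubule segments were mixed, and the podocyte list fell, beside 24.1% of all tested genes that rose and 25.0% that fell. Of 8 proximal tubule genes *Lrp2* rose and 3 fell, *Slc7a13*, *Miox* and *Slc5a2*. Of 8 collecting duct genes *Avpr2* rose and 3 fell, *Slc4a1*, *Scnn1b* and *Atp6v0d2*, and all 5 podocyte genes fell, led by *Nphs1*, *Wt1* and *Synpo*. Against the R-named wildtype set 5 proximal tubule and 5 collecting duct genes rose and 2 and 3 fell, and against the remaining 3 wildtype libraries 0 rose and 5 and 4 fell. Of the podocyte genes 3 fell and 0 rose with the R-named set, and 3 fell and 1 rose with the other. Of the 12 liver genes 7 were tested and 6 rose, led by *Fgg*, *Fgb* and *Fga*, and *Alb* was lower with salsalate; without PKD replicate 10, 4 rose, 3 fell and 0 were called with salsalate. Against the R-named wildtype set 5 liver genes rose, and against the other 2 did.

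Kidneys also differed within groups, and the genes that followed each member were found from log2 CPM less the group mean over the 32 kidneys. The points share library, depth and, for wildtype, the split of library names. The 3 genes most like *Egf* were *Mccc2* (Pearson's r 0.85), *Pcsk6* (0.84) and *Por* (0.83), and those most like *Egfr* were *Sc5d* (0.91), *Apob* (0.90) and *Dhtkd1* (0.90). *Erbb3* was followed most by *Tmem140* (0.93), *Cbx2* (0.91) and *Tmub2* (0.90), *Erbb2* by *Ddr1* (0.88), *Gm54798* (0.88) and *Celsr1* (0.88), and *Erbb4* by *Klhl15* (0.76), *Bcap29* (0.70) and *Tmem230* (0.70). Over the 24 PKD kidneys alone the values for *Erbb2* dropped to 0.58, 0.51 and 0.60, and those for *Erbb3* were 0.90, 0.71 and 0.59. The followers of *Erbb2* as a set thus depended most on the wildtype libraries, and *Tmub2*, a follower of *Erbb3*, dropped about as far.

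Among the ligands, *Nrg1* was followed by *Itgb3* (0.75), *Mmp19* (0.69) and *Cd1d1* (0.69), *Btc* by *Gzf1* (0.83), *Tada2b* (0.82) and *Maml1* (0.80), *Hbegf* by *Cflar* (0.77), *Msl1* (0.77) and *Atp2b1* (0.75), and *Tgfa* by *Slc1a4* (0.85), *Nmnat3* (0.85) and *Fads1* (0.85). Leaving out PKD replicate 10 moved r most for *Cd1d1*, from 0.69 to 0.73. Between the tested members, over the 24 PKD kidneys less their group means, *Egfr* followed *Tgfa* (r 0.73) and *Erbb3* (0.68) and ran against *Hbegf* (-0.57). *Egf* stayed between -0.36 and 0.29 with every other tested member. *Areg* was not among them.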

How the data were processed

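RNA was isolated from whole kidneys, and poly(A) libraries were made with a directional kit. The authors trimmed reads with cutadapt 2.10, aligned them with STAR 2.7.5a to GRCm39 and deposited raw counts per gene from HTSeq 0.12.4, per the labels and the study's methods. Rows of unassigned reads were left out. Symbols came from GENCODE, and 52610 of 53700 identifiers matched. A further identifier in the count table also has the name *Nrg1*, and the one with more exon sequence was used. The opposite-strand genes *Gm42650* and *Gm42697* within *Egf* reached at most 0.189 CPM.

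Counts were tested with edgeR 4.0.16 (R 4.3.3): TMM scaling, log2 CPM over 1 in at least 8 of 32 kidneys (25%), 1 quasi-likelihood fit of all 3 groups, two-sided tests, Benjamini-Hochberg adjustment over all genes tested, threshold 0.05. Standard errors come from the F statistic. Ratios and the CPM of *Areg* were tested by permutation (scipy). Fits were tested on simulated data. Each kidney is 1 mouse per the study's methods. Members, lists and tests were chosen with earlier results of these data known. Named list genes were, per list, at most 3 with the smallest adjusted p in PKD against wildtype and any called with salsalate; others named, such as *Umod*, *Errfi1*, *Timp3* and *Ereg*, were chosen after their values were seen. Some list genes are not reported by name here. Alternatives were DESeq2 1.42.0 size factors and Wald test, upper-quartile scaling, limma-voom (limma 3.58.1), filterByExpr, no filter, only the groups compared, a replicate block, either wildtype library set and leaving out each kidney.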

Additional observations from a re-analysis of the deposited data

Results flagged for a closer look

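In the 8 wildtype kidneys, the gap between the highest kidney and the next was taken as a share of the group's range. It was above Dixon's 95% critical value for 3 of the 10 genes. Chance flags about 1 in 20 groups drawn from a single normal distribution. That rate cannot be relied on here, since the wildtype libraries formed 2 sets and *Areg* had no count in 6 of the 8. For *Areg* the share was 0.760, since replicate 1 held 0.189 CPM, from 2 counts, and the next kidney 0.0454 CPM. For *Tgfa* it was 0.563, with 9.01 CPM in replicate 7 and 5.30 CPM in the next. For *Nrg1* it was 0.662, with 11.3 CPM in replicate 2 and 7.49 CPM in the next, while all PKD kidneys were at 19.1 CPM or above. The 2 PKD groups have more than 10 kidneys and were not tested in this way.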

How the results depend on the processing

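Beside leaving out each kidney, 10 alternatives were run for the 9 members tested and 8 for *Areg*. The calls and directions of *Egf*, *Btc* and *Nrg1* against wildtype stayed as given under all 42 alternatives, that of *Areg* in PKD against wildtype under all 40, and 0 of the 9 members were called with salsalate under any of them. With only the wildtype libraries ending in R, the log2 fold change changed sign for *Hbegf* in PKD (-0.12) and *Erbb4* in PKD + Salsalate kidneys (0.079). With only the others it changed sign for *Erbb2* (-0.17), *Erbb3* (-0.086), *Erbb4* (-0.057) and *Tgfa* (-0.43) in PKD kidneys and for *Erbb2* (-0.082), *Hbegf* (0.14) and *Tgfa* (-0.42) in PKD + Salsalate kidneys, where 3 members were called in place of 6. The cause was not tested. *Areg* in PKD + Salsalate against wildtype was 2.101 and 2.91 with either set and no longer called. *Erbb2* in PKD against wildtype was called under limma-voom, upper-quartile scaling and the replicate block (adjusted p 0.023, 0.027 and 0.029) and without wildtype replicate 6, 7 or 8 or PKD replicate 6.

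Leaving out 1 kidney gave -0.043 to 0.078 for *Hbegf* and -0.0039 to 0.30 for *Tgfa* in PKD against wildtype, -0.038 to 0.071 for *Tgfa* between the PKD groups, and -0.066 to 0.010 for *Erbb4* in PKD + Salsalate against wildtype, -2.26 to -1.70 for *Areg* between the PKD groups, and 2.06 to 3.49 for *Areg* in PKD + Salsalate against wildtype. The number of all genes called between the PKD groups, 81, was 199 with the DESeq2 Wald test, 146 with limma-voom, 195 with only both PKD groups, 145 and 257 with either wildtype set, and 39 to 226 on leaving out 1 kidney (39 without PKD + Salsalate replicate 5, 226 without replicate 11). With the replicate number as a block it was 48, and 0 members were called. The main fit did not treat same-numbered kidneys as pairs. Deviations of same-numbered kidneys from their group means correlated between -0.55 and 0.47 over 28 pairs, of which 8 were over 0.1. Differently numbered kidneys were not set beside them, so these values do not settle whether the numbers pair kidneys. Per coding length, *Hbegf* (44.5 CPM per kilobase) stood second in wildtype kidneys. Depth limits *Areg*, at 0 to 32 counts per library.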
